A study of Mus musculus with 15 samples.

Results

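Neuropeptide precursors of olfactory bulb neurons were followed here across loss and forced activity of the CRH receptor CRHR1. The set was 10 genes, Sst, Penk, Vip, Adcyap1, Grp, Cck, Tac1, Nts, Pomc and Cartpt, chosen by name as the probes that carry these symbols on the array, out of 27339 genes tested. All 10 were represented by a single probe, all 10 probes passed the filter on dim signals, and each was well above background on all 15 arrays, so no member was lost. RNA of the whole olfactory bulb of 15 male mice, aged 6 to 8 weeks, was measured on 1-colour Agilent arrays, 1 mouse per array and 5 mice per group. RNA was taken 2 weeks after injection of 500 nL of adeno-associated virus, and the cargo of these viruses (AAV-flex) is expressed only in cells that hold Cre recombinase.

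The knockout group was CRHR1-/- of strain 129S4/SvJae and received AAV-flex GFP, and its titles name no Cre. The Cre GFP group was CRHR-Cre of strain C57Bl/6 and received AAV-flex GFP. The active CRHR1 group was CRHR-Cre of strain C57Bl/6 and received AAV-flex (CA)CRHR, which codes for a constitutively active form of the receptor. The labels place the viral cargo in CRHR1-positive granule cells, the most numerous inhibitory neurons of the bulb, whereas the RNA came from every cell of the bulb. Wherever the knockout group is compared, receptor loss, strain and Cre status cannot be told apart. The arrays lay on 2 slides: all knockout arrays were on slide 1 with Cre GFP 1, 2 and 3, and all active CRHR1 arrays were on slide 2 with Cre GFP 4 and 5. Active CRHR1 and knockout arrays thus shared no slide, and without a term for slide their difference cannot be told apart from one between slides. A fit with such a term estimates the slide difference from the Cre GFP arrays alone.

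Neuropeptides are cut from larger precursor proteins by convertases that act at pairs of basic residues, are stored in dense-core vesicles with the granins, and act on G-protein-coupled receptors over longer times and distances than glutamate or GABA. In the olfactory bulb they mark subsets of neurons: Cck is known for tufted cells, Penk for granule and periglomerular cells, and Sst and Vip for sparse interneurons. CRH is itself such a peptide, and its receptor CRHR1 raises cyclic AMP, a messenger that acts on genes through the cAMP response element TGACGTCA.

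The promoters of 8 of the 10 members, all but Penk and Grp, were matched by symbol in the RefSeq promoter table (build GRCm38.p6), which holds 250 bases before and 50 bases after each transcription start. Adcyap1 had entries for an upstream and a downstream start. Those of the members with the full element, and of Adcyap1 and Pomc, whose transcripts fell in the active CRHR1 group, are shown because the element is the usual DNA target of the receptor's pathway. They lie at chr16:23890795-23891094 on the minus strand (Sst), chr13:99900634-99900933 on the minus strand (Cartpt), chr17:93198767-93199066 on the plus strand (Adcyap1, the start farther upstream) and chr12:3954695-3954994 on the plus strand (Pomc). Capitals mark the element TGACGTCA or, where only that is present, its half-site TGACG or the reverse complement CGTCA, and the full element contains the half-site on each strand.
Sst: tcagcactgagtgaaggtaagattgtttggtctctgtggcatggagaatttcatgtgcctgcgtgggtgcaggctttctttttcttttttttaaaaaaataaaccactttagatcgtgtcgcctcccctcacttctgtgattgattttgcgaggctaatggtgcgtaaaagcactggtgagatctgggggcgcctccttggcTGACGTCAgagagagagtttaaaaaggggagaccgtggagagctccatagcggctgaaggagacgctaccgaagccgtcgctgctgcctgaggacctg
Cartpt: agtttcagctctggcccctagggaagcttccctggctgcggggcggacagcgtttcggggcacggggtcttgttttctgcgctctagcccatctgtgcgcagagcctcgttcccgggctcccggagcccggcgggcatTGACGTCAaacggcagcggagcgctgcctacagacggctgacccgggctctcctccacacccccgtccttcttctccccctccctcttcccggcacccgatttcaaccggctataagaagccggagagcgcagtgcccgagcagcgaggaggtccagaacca
Adcyap1: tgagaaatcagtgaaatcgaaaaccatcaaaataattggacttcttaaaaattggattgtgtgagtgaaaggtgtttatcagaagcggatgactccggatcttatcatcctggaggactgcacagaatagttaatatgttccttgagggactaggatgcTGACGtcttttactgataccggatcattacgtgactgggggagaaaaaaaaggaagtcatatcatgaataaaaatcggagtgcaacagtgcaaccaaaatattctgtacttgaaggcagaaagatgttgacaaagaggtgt
Pomc: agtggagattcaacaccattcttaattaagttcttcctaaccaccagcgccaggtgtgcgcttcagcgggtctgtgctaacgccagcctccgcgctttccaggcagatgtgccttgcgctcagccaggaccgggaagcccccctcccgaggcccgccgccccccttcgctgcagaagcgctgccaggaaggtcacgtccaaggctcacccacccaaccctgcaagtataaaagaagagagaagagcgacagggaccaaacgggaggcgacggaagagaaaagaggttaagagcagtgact

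The full element was present in 2 of the 8 member genes (25%), 48 bases before the start of Sst and 112 bases before that of Cartpt, and in 549 of all 27025 genes of the table (2.03%). The half-site on either strand was present in 7 of the 8 (87.5%) against 23.0% of all genes, and Pomc had no match in this window. The half-site nearest to each start lay 91 bases before the upstream start of Adcyap1 and 242 before its downstream start. It lay 79 bases before the start of Vip, 47 before that of Cck, 43 before that of Tac1 and 166 before that of Nts. A match is a description of these letters and not a measured binding site. Sst, which fell in the active CRHR1 group, and Cartpt, which was not called there, both hold the full element, and Pomc, which also fell, holds neither form. Grp, which fell most, had no promoter entry, and a link between the element and the changes was not tested.

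The probes read the messages of the precursors, and 3 of them cover stretches that code for pairs of basic residues, shown here because such pairs are the usual places where convertases cut. Capitals mark adjacent codon pairs for lysine or arginine in the frame in which the precursor is read. A marked pair is a description of these letters and not a measured cut site, and which of the pairs are cut was not analysed here. The Nts probe (mm9 chr10:101944967-101945026, minus strand) ends the neurotensin sequence, the Pomc probe (mm9 chr12:3960413-3960472, plus strand) holds the end of beta-endorphin and of the coding sequence, and the Cartpt probe (mm9 chr13:100668967-100669956, minus strand) enters a CART peptide and spans 990 bases of genome with its 60 bases, which places it across an intron.
Nts: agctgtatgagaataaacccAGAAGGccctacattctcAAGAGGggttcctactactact
Pomc: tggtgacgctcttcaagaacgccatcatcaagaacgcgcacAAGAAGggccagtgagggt
Cartpt: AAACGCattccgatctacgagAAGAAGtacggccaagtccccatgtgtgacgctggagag

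Apart from Cartpt, 9 of the 10 probes match the genome in 1 piece of 60 bases. The probes of Sst and Adcyap1 lie at mm9 chr16:23889776-23889835 on the minus strand (Sst, printed as 10 spots on each array and averaged) and chr17:93604401-93604460 on the plus strand (Adcyap1). Levels below are the log2 processed signal minus the array's 75th percentile, changes are differences of group means on that scale, and "called" means a Benjamini-Hochberg adjusted p under 0.05 over all 27339 genes in limma fitted to all 15 arrays. Levels of different genes come from different probes and are not set against each other. In whole-bulb RNA, fewer cells of a type and less RNA per cell cannot be told apart. The arrays' 75th percentiles ran from 664 to 1171 signal units, 58.7% to 66.9% of probes were well above background, and Crhr1 itself was called lower in the knockout group than in Cre GFP (level 3.16 ± 0.12 against 3.63 ± 0.18, SD, n = 5; change -0.47 ± 0.09, SE, adjusted p = 0.0140), without a drop to background. Whether its probe lies in the deleted part was not analysed here. Crhr1 was 3.72 ± 0.12 in the active CRHR1 group (change 0.09 ± 0.09 against Cre GFP, adjusted p = 0.546).

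In the bulbs with active CRHR1, 4 of the 10 precursors fell against Cre GFP: Grp 2.65-fold, Sst 1.63-fold, Adcyap1 1.60-fold and Pomc 1.31-fold. None of the 10 rose, at the adjusted threshold or at an unadjusted p under 0.05 in limma, and 8 of the 10 were lower at that unadjusted level, against 27.3% of all genes changed in either direction. Over all genes tested, 4.67% fell and 3.90% rose in this comparison (8.57% in all). In the knockout bulbs only Adcyap1 was called of the 10, 1.41-fold lower than in Cre GFP, against 3.39% of all genes called in that comparison (1.43% lower and 1.96% higher). Active CRHR1 against knockout gave lower Grp (2.86-fold), Sst (2.03-fold), Pomc (1.50-fold) and Nts (1.28-fold), where 25.7% of all genes were called, 16.3% lower and 9.39% higher. With slide as a fixed block Adcyap1 alone stayed called in active CRHR1 against Cre GFP, and no member was called by limma in the other comparisons (2 in knockout against Cre GFP and 6 in active CRHR1 against knockout at an unadjusted p under 0.05).

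**Figure D1:**
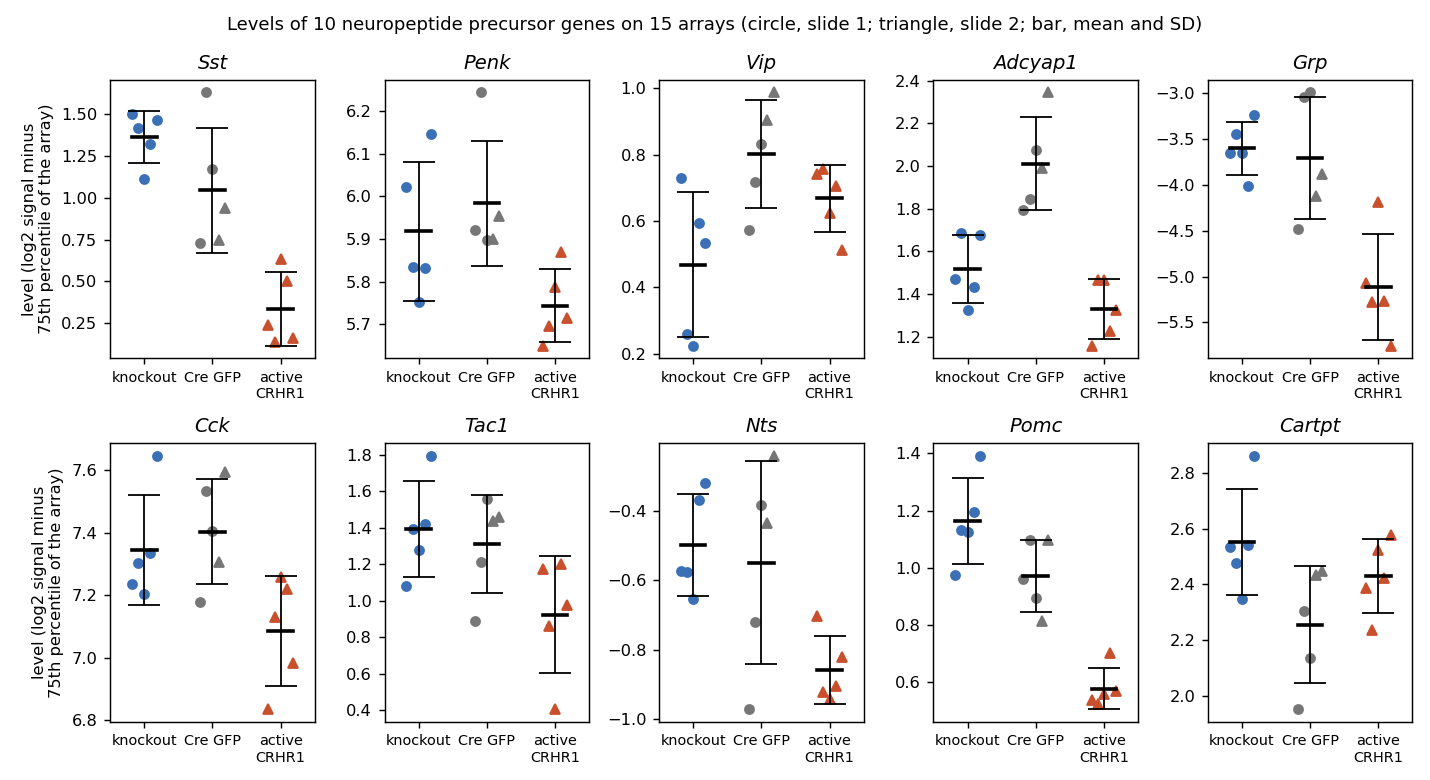
Level of each precursor (log2 signal minus the array's 75th percentile, its own scale in each panel) on the 5 arrays of each group; circles are arrays of slide 1, triangles arrays of slide 2, and bars show the mean and SD. The active CRHR1 arrays lie below all Cre GFP arrays for Sst, Penk, Adcyap1 and Pomc, and the knockout arrays lie below all Cre GFP arrays for Adcyap1.

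Somatostatin and the enkephalins act on receptors that lower cyclic AMP. Sst, the precursor of somatostatin, had levels of 0.24, 0.14, 0.64, 0.50 and 0.16 on the active CRHR1 arrays, 0.73, 1.63, 1.17, 0.75 and 0.94 on the Cre GFP arrays, and 1.50, 1.42, 1.11, 1.32 and 1.46 on the knockout arrays. All 5 active CRHR1 arrays were below all 10 others, the knockout arrays were high and close together, and the Cre GFP arrays spread widely between and above them. The fall against Cre GFP was -0.71 ± 0.16 (SE, 95% interval -1.05 to -0.36, adjusted p = 0.0154 in limma) and that against knockout -1.02 ± 0.16 (adjusted p = 0.00109). The knockout group was 0.32 ± 0.16 above Cre GFP (interval -0.03 to 0.66, adjusted p = 0.288), which was not called. With the slide block the falls were -0.51 (adjusted p = 0.167) and -0.69 (adjusted p = 0.164). Sst averaged 1.18 in the Cre GFP mice of slide 1 and 0.84 in those of slide 2.

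Penk, the precursor of the enkephalins, is a transcript of many granule cells. Its levels were 5.65, 5.70, 5.79, 5.87 and 5.71 with active CRHR1, 5.92, 6.24, 5.90, 5.90 and 5.95 in Cre GFP, and 6.02, 5.84, 5.75, 5.83 and 6.15 in the knockout. The active CRHR1 arrays were all below the Cre GFP arrays, and the nearest arrays of the groups were at 5.87 and 5.90. The change was -0.24 ± 0.09 (interval -0.43 to -0.05, adjusted p = 0.104), so that Penk was not called although its groups did not overlap. Of the 10 members 4 had no overlap in this comparison (Sst, Penk, Adcyap1 and Pomc), against 10.5% of all genes. Knockout and Cre GFP differed by -0.07 ± 0.09 (interval -0.26 to 0.12, adjusted p = 0.720).

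VIP and PACAP, the product of Adcyap1, are related peptides whose receptors raise cyclic AMP, as CRHR1 does. Adcyap1 showed levels of 1.79, 1.84, 2.08, 1.99 and 2.35 on the Cre GFP arrays, 1.16, 1.47, 1.47, 1.23 and 1.33 with active CRHR1, and 1.47, 1.69, 1.32, 1.43 and 1.68 in the knockout. Every array of the active CRHR1 and knockout groups was below every Cre GFP array, while the active CRHR1 and knockout arrays overlapped. Against Cre GFP, the active CRHR1 group fell by 0.68 ± 0.11 on the log2 scale (interval -0.92 to -0.45, adjusted p = 0.00178) and the knockout group fell by 0.49 ± 0.11 (interval -0.73 to -0.26, adjusted p = 0.0278). These comparisons share the 5 Cre GFP mice. The direct difference between active CRHR1 and knockout was -0.19 ± 0.11 (interval -0.42 to 0.05, adjusted p = 0.205), which was not called.

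Among the called changes of the 10 members, the fall of Adcyap1 with active CRHR1 was the only one that stayed called with the slide block. It was then -0.84 ± 0.14 (adjusted p = 0.00484). Among the slide 2 arrays alone, with 2 of Cre GFP, the change was the same and its adjusted p in limma was 0.0449. Without the block, the call held with each of the 15 arrays left out. Adcyap1 averaged 1.90 in the Cre GFP mice of slide 1 and 2.17 in those of slide 2. The knockout difference became -0.39 with the slide block (SE 0.12, adjusted p = 0.130), and it lost its call without knockout 1, 3 or 4 or Cre GFP 3 or 4 (adjusted p at most 0.0690). In the knockout comparison Adcyap1 was also the only member of the 10 whose groups did not overlap, against 5.53% of all genes.

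Vip, whose peptide is made by sparse interneurons of the bulb, was not called in any comparison. Its levels with active CRHR1 were 0.74, 0.76, 0.63, 0.71 and 0.51, against 0.57, 0.72, 0.83, 0.90 and 0.99 in Cre GFP and 0.73, 0.26, 0.22, 0.59 and 0.54 in the knockout. All groups overlapped, and knockout arrays 2 and 3 were the lowest. The knockout difference of -0.33 ± 0.11 (interval -0.56 to -0.11) missed the threshold at an adjusted p of 0.0999, and the active CRHR1 difference was -0.13 ± 0.11 (interval -0.36 to 0.09, adjusted p = 0.427).

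**Figure D2:**
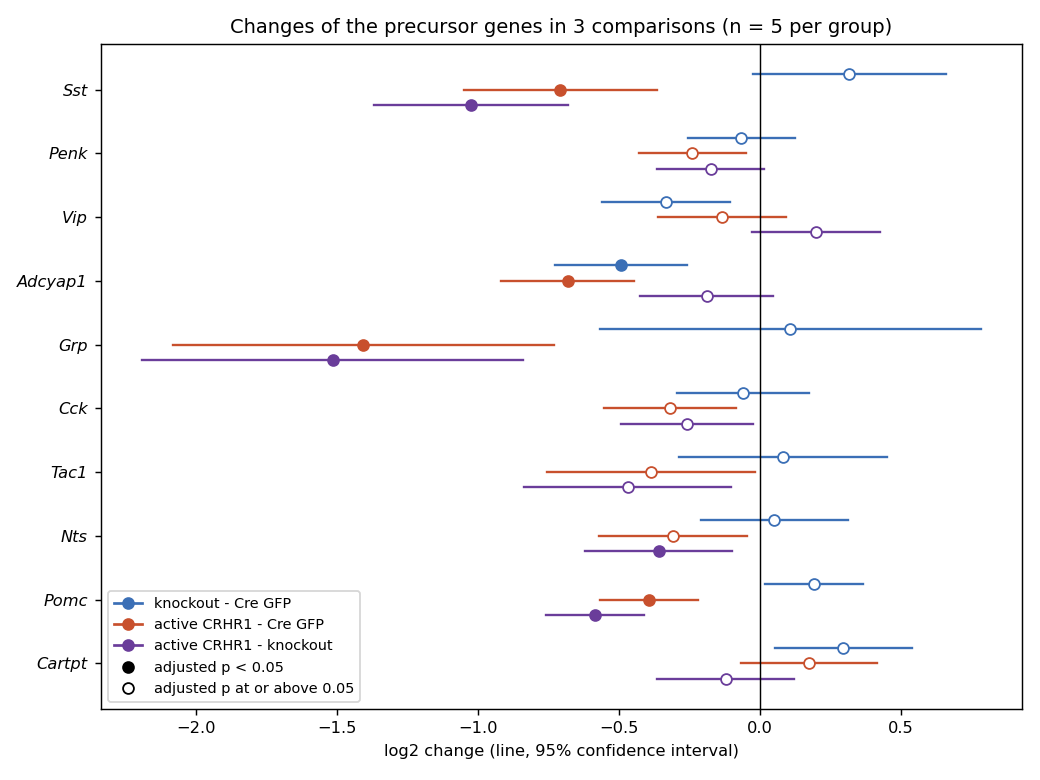
Difference of group means in log2 units for each precursor in the 3 comparisons, with its 95% confidence interval as a line and filled points for an adjusted p under 0.05. Grp showed the largest falls, -1.41 against Cre GFP and -1.51 against knockout, and the knockout comparison has 1 filled point, Adcyap1 at -0.49.

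Gastrin-releasing peptide, cholecystokinin, the tachykinins and neurotensin mostly excite cells through receptors coupled to phospholipase C. Grp had the largest change of the set, from a dim probe. Its levels were -5.07, -5.28, -4.18, -5.27 and -5.75 with active CRHR1, -4.48, -3.04, -2.99, -4.12 and -3.88 in Cre GFP, and -3.65, -3.44, -3.65, -4.01 and -3.23 in the knockout. Active CRHR1 array 3 reached above Cre GFP array 1, so these groups overlapped, whereas all active CRHR1 arrays were below all knockout arrays. The lowest level that still counted as well above background ran from -6.18 to -5.61 over the 15 arrays, close to the lowest Grp value.

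The fall of Grp was -1.41 ± 0.31 against Cre GFP (interval -2.08 to -0.73, adjusted p = 0.0144) and -1.51 ± 0.31 against knockout (adjusted p = 0.00538). Only 0.0622% of the genes tested had a lower change than Grp against Cre GFP. The slide block gave -1.11 ± 0.41 against Cre GFP (adjusted p = 0.144) and -1.02 ± 0.55 against knockout (adjusted p = 0.269). With normexp background correction, whose offset is added to a signal this dim, the change against Cre GFP was -0.58 and still called. Knockout and Cre GFP differed by 0.11 ± 0.31, an interval of -0.57 to 0.78 that leaves room for sizeable changes either way (adjusted p = 0.885).

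Cck is a transcript of tufted cells. Levels of 6.84, 7.13, 7.26, 7.22 and 6.98 with active CRHR1 stood against 7.18, 7.53, 7.41, 7.31 and 7.59 in Cre GFP and 7.24, 7.30, 7.20, 7.33 and 7.65 in the knockout. The active CRHR1 arrays were the lower ones but overlapped with the other groups. The change against Cre GFP of -0.32 ± 0.11 (interval -0.55 to -0.08) was not called (adjusted p = 0.0832), although it was without Cre GFP 1 or knockout 5 (adjusted p down to 0.0407). The knockout difference was -0.06 ± 0.11 (interval -0.29 to 0.17, adjusted p = 0.802).

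Tac1 codes for substance P and neurokinin A. It read 1.17, 0.86, 0.41, 1.20 and 0.98 with active CRHR1, 0.89, 1.21, 1.56, 1.44 and 1.46 in Cre GFP, and 1.08, 1.39, 1.28, 1.42 and 1.79 in the knockout. Active CRHR1 array 3 was the lowest and all groups overlapped. Neither the change with active CRHR1 (-0.39 ± 0.17, interval -0.75 to -0.02, adjusted p = 0.164) nor that in the knockout (0.08 ± 0.17, interval -0.29 to 0.45, adjusted p = 0.829) was called. Against knockout, active CRHR1 was lower by an uncalled -0.47 ± 0.17 (adjusted p = 0.0574), which was called without knockout 1, Cre GFP 1 or active CRHR1 4 (adjusted p down to 0.0421).

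Nts, read with the probe shown above, was at -0.70, -0.92, -0.94, -0.90 and -0.82 with active CRHR1. The Cre GFP arrays were at -0.97, -0.72, -0.38, -0.44 and -0.24, and the knockout arrays at -0.57, -0.58, -0.65, -0.37 and -0.32. Cre GFP array 1 was the lowest of all 15 and the other Cre GFP arrays were mostly high, so that this group enclosed the active CRHR1 arrays, while knockout and active CRHR1 arrays did not overlap. Nts fell by 0.36 ± 0.12 on the log2 scale in active CRHR1 against knockout (interval -0.62 to -0.10, adjusted p = 0.0444). That call held in only 4 of the 15 fits that left out an array: it was lost without any single active CRHR1 array, without knockout 1, 2, 4 or 5, and without Cre GFP 3 or 4 (adjusted p at most 0.0992). It was also lost with the slide block (change -0.71, adjusted p = 0.0625). Against Cre GFP the change was -0.31 ± 0.12 (interval -0.57 to -0.05, adjusted p = 0.125) and was called without Cre GFP 1 (adjusted p = 0.0213), and the knockout difference from Cre GFP was 0.05 ± 0.12 (interval -0.21 to 0.31, adjusted p = 0.854).

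Pomc and Cartpt are best known for the hypothalamus, where neurons that make melanocortins and CART restrain feeding, and Pomc also gives ACTH in the pituitary. Pomc levels were 0.54, 0.52, 0.56, 0.70 and 0.57 with active CRHR1, 0.96, 1.10, 0.89, 0.81 and 1.10 in Cre GFP, and 0.97, 1.13, 1.12, 1.20 and 1.39 in the knockout. The active CRHR1 arrays formed a tight group below all 10 others. The fall was -0.39 ± 0.08 against Cre GFP (interval -0.57 to -0.22, adjusted p = 0.00868) and -0.59 ± 0.08 against knockout (adjusted p = 0.000551). The slide block left these sizes nearly as they were, at -0.38 ± 0.11 and -0.56 ± 0.15, but the adjusted p values rose to 0.0782 and 0.0628. The knockout difference of 0.19 ± 0.08 (interval 0.02 to 0.36) was not called (adjusted p = 0.206).

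Neighbouring tissue was looked at beside Pomc. Of 8 pituitary genes, 7 (Gh, Prl, Pou1f1, Tshb, Fshb, Cga and Tbx19) did not pass the filter on dim probes, and the remaining one, Lhb, had a summed linear level of 0.0183 to 0.0520 of the arrays' 75th percentile over the 3 groups. Of 8 hypothalamic genes, 5 were tested, with a summed level of 0.343 to 0.673 in the knockout, 0.397 to 0.742 in Cre GFP and 0.414 to 0.609 with active CRHR1, and limma called none in the comparisons with Cre GFP (1 was lower in the knockout at an unadjusted p under 0.05). In active CRHR1 against knockout, where Pomc fell, 1 of the 5 was called, Hcrt, which was higher (0.88 ± 0.23, adjusted p = 0.0163, and 1.61 with the slide block, adjusted p = 0.0311). Hcrt was also called lower in the knockout than in Cre GFP with the slide block (-1.04, adjusted p = 0.0388). Its probe was dim, at -3.18 ± 0.32 with active CRHR1, -3.31 ± 0.57 in Cre GFP and -4.06 ± 0.15 in the knockout (SD). Pmch, Otp and Fezf1 of that list did not pass the filter.

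Cartpt, the precursor of CART, was the only member whose mean was higher with active CRHR1 than in Cre GFP. It stood at 2.39, 2.24, 2.52, 2.42 and 2.58 with active CRHR1, 1.95, 2.31, 2.14, 2.44 and 2.45 in Cre GFP, and 2.53, 2.48, 2.35, 2.54 and 2.86 in the knockout. Cre GFP arrays 1 and 3 were the lowest of all, knockout array 5 was the highest, and all groups overlapped. Neither the difference of 0.17 ± 0.11 with active CRHR1 (interval -0.07 to 0.42, adjusted p = 0.332) nor that of 0.30 ± 0.11 in the knockout (interval 0.05 to 0.54, adjusted p = 0.163) was called. With the slide block the former was -0.01. Cartpt averaged 2.13 in the Cre GFP mice of slide 1 and 2.44 in those of slide 2.

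**Figure D3:**
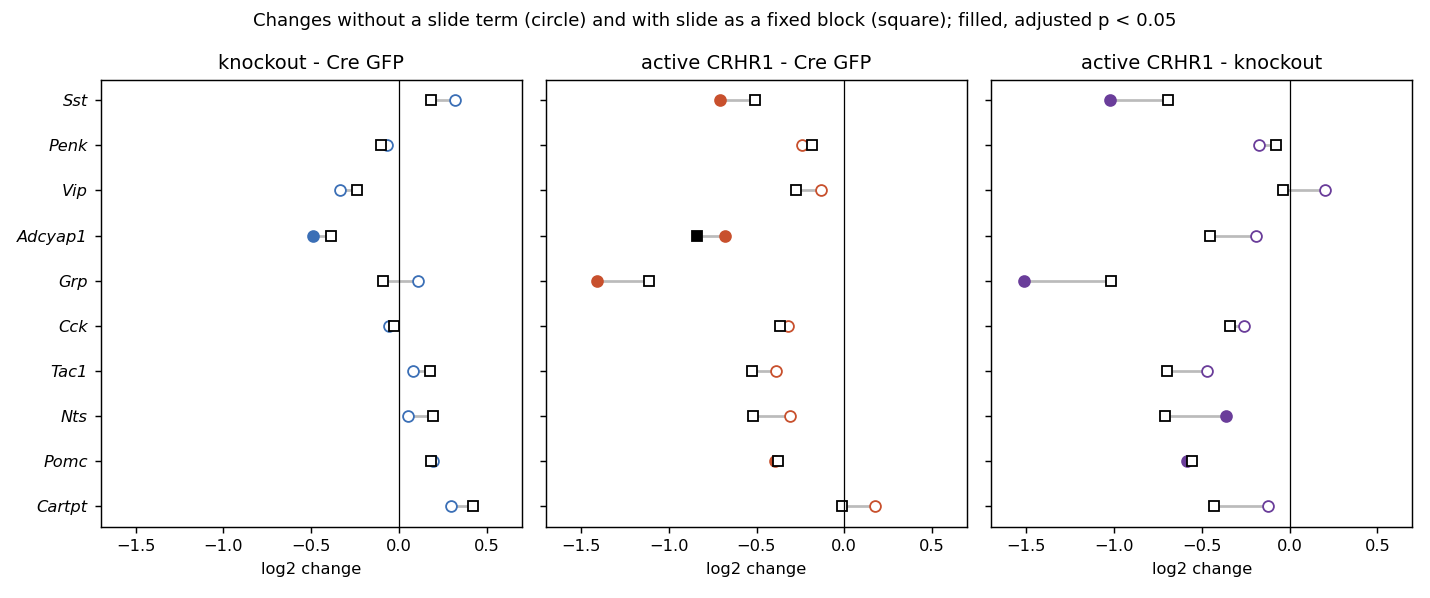
Difference of group means in log2 units without a slide term (circles) and with slide as a fixed block (squares) for each precursor, filled where the adjusted p is under 0.05. Adcyap1 in active CRHR1 against Cre GFP is the only filled square, at -0.84, and Pomc shows the smallest shift among the called members, from -0.39 to -0.38.

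As a set, the 10 members had a median change of -0.35 with active CRHR1 against Cre GFP, where the median of all genes was -0.07, and 9 of the 10 had a lower mean, as did 61.9% of all genes. In the knockout comparison the median of the members was 0.07, that of all genes 0.0037, and 4 of the 10 had a lower mean, as did 49.3% of all genes. Between active CRHR1 and knockout the members' median was -0.31 and 9 of 10 means were lower, where all genes had a median of -0.07 and 59.3% had a lower mean. In that comparison 4 members (Sst, Grp, Pomc and Nts) had groups that did not overlap, against 18.7% of all genes.

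Variation among mice of the same group was compared between members. With each array's level taken as its deviation from its group mean, the highest correlations over the 15 arrays were those of Sst with Grp (r = 0.78), Sst with Penk (0.75), Tac1 with Nts (0.72) and Cck with Pomc (0.70), and the lowest was that of Vip with Pomc (-0.08). Of the 45 pairs, 40 had a positive coefficient, with a median of 0.33. The points share the array, its scaling and the bulb it came from, and these values are descriptions.

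The genes most like each called member were taken from 15517 genes with a symbol that were well above background on all arrays, by the correlation of levels over the same 15 arrays, which includes the differences between groups. Sst was most like Lyrm4 (r = 0.96), Wasf1 (0.94) and Zfp423 (0.94). Adcyap1 was most like Nrn1 (0.96), B630019K06Rik (0.95) and Ap1m1 (0.95). Nrn1, neuritin, is also on the list of markers of anterior olfactory and cortical neurons given below, and its correlation with Adcyap1 was 0.86 for deviations from group means. The first match of Grp was Sst (0.91), another member, followed by Apex1 and Wnt9a (0.90 each). Pomc was most like Tafa1 (0.98), Thrb (0.97) and Psat1 (0.96), and Nts most like Gpx7 (0.96), Ap1s3 (0.92) and Prkar2b (0.92).

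Peptide release also needs the processing enzymes and granins of dense-core vesicles, and all 11 listed genes of this kind were tested. Over all genes, 3.39% were called in the knockout and 8.57% with active CRHR1, each against Cre GFP. Between active CRHR1 and knockout 25.7% were called, 16.3% lower and 9.39% higher. With active CRHR1 against Cre GFP 0 rose (also 0 at an unadjusted p under 0.05 in limma) and 1 fell, Pcsk2, a convertase (-0.29 ± 0.08, adjusted p = 0.0312), and the list's median change was -0.22. In the knockout 0 rose (0 unadjusted) and 2 fell, Scg2, a granin (-0.42 ± 0.10, adjusted p = 0.0363), and Vgf (-0.49 ± 0.13, adjusted p = 0.0488), with a list median of -0.01. Active CRHR1 against knockout had 1 that rose, Vgf (0.57 ± 0.13, adjusted p = 0.00771), and 4 that fell, among them Pcsk1n (-0.42 ± 0.11, adjusted p = 0.0136) and Scg5 (-0.39 ± 0.11, adjusted p = 0.0190), with a median of -0.09. With the slide block the changes against Cre GFP were -0.31 for Pcsk2 (adjusted p = 0.111), -0.37 for Scg2 (adjusted p = 0.140) and -0.41 for Vgf (adjusted p = 0.195), and with 1 array left out their calls held in 9, 5 and 2 of 15 fits. Between active CRHR1 and knockout the slide block ended all 5 calls, with 0.35 for Vgf (adjusted p = 0.332), -0.38 for Pcsk1n (adjusted p = 0.243) and -0.35 for Scg5 (adjusted p = 0.277).

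Of 25 receptors for the members' peptides 22 were tested. Cckar, Grpr and Mc1r did not pass the filter, so the main receptor for gastrin-releasing peptide could not be followed beside Grp. With active CRHR1 against Cre GFP 0 rose (0 at an unadjusted p under 0.05) and 1 fell, Tacr1, the substance P receptor (-0.41 ± 0.10, adjusted p = 0.0233), and the list's median was -0.13. In the knockout, Tacr1 alone rose (0.53 ± 0.10, adjusted p = 0.0122), and Vipr2, a receptor for VIP and PACAP (-0.47 ± 0.11, adjusted p = 0.0333), and Mc3r, a melanocortin receptor (-1.57 ± 0.37, adjusted p = 0.0345), fell, with a list median of -0.05. Mc3r was read from a dim probe, at -4.47 ± 0.61 in the knockout and -2.90 ± 0.70 in Cre GFP (SD). Between active CRHR1 and knockout 1 rose, Vipr2 (0.46 ± 0.11, adjusted p = 0.0109), and 6 fell, of which Tacr1 (-0.94 ± 0.10, adjusted p = 0.000117) and Nmbr (-0.83 ± 0.17, adjusted p = 0.00571) had the smallest p, with a median of -0.10. The Nmbr probe was also dim, at -3.95 ± 0.31 with active CRHR1 and -3.12 ± 0.29 in the knockout (SD). Over all genes 9.39% rose and 16.3% fell between those groups, and 3.39% and 8.57% were called in the knockout and with active CRHR1 against Cre GFP. With 1 array left out the calls against Cre GFP held in 15 of 15 fits for Tacr1 in the knockout, 11 for Tacr1 with active CRHR1, 10 for Vipr2 and 7 for Mc3r. With the slide block Tacr1 alone of these kept its calls, at 0.63 in the knockout (adjusted p = 0.0134), -0.56 with active CRHR1 (adjusted p = 0.0231) and -1.20 between them. With median centring limma no longer called Tacr1 in the knockout (adjusted p = 0.123) or with active CRHR1 against Cre GFP (adjusted p = 0.0647). Between active CRHR1 and knockout it stayed called there (adjusted p = 0.00110).

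Among 25 other neuropeptide precursors 20 were tested, and Ucn, Nms, Pmch, Calcb and Rln3 did not pass the filter. In the active CRHR1 group Crh, the ligand of CRHR1, fell against Cre GFP (-0.85 ± 0.18, adjusted p = 0.00955, kept with the slide block at -1.14), and Adm, adrenomedullin, rose (0.40 ± 0.11, adjusted p = 0.0348, in 7 of 15 fits with 1 array left out, and 0.44 with an adjusted p of 0.109 with the slide block). Crh was also lower in the knockout than in Cre GFP by an uncalled -0.65 ± 0.18 (adjusted p = 0.0624 in limma). Active CRHR1 and knockout differed in Crh by -0.21 ± 0.18 (adjusted p = 0.394), which was not called. The knockout group had lower Pnoc, the nociceptin precursor (-0.65 ± 0.12, adjusted p = 0.00951), and higher Npy, neuropeptide Y of bulb interneurons (0.53 ± 0.10, adjusted p = 0.0134), and both calls held with the slide block. With median centring limma still called Pnoc (adjusted p = 0.0406) but not Npy (adjusted p = 0.126). Active CRHR1 against knockout had 5 that rose and 2 that fell, with Npy (-0.69 ± 0.10, adjusted p = 0.000767), Adm (0.49 ± 0.11, adjusted p = 0.00741) and Nmu of smallest p. Over all genes 9.39% rose and 16.3% fell between those groups, and 3.39% and 8.57% were called in the knockout and with active CRHR1 against Cre GFP. Nmu, 1 of the 2 that fell, passed the filter only through the knockout group, where it is high: it was well above background on 5 knockout, 3 Cre GFP and 2 active CRHR1 arrays. With the slide block 1 rose and 1 fell between these groups, Npy keeping its call at -0.88 (adjusted p = 0.0258) and Adm losing it at 0.56 (adjusted p = 0.131). The medians of this list were -0.15 with active CRHR1, -0.18 in the knockout and 0.04 between them.

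**Figure D4:**
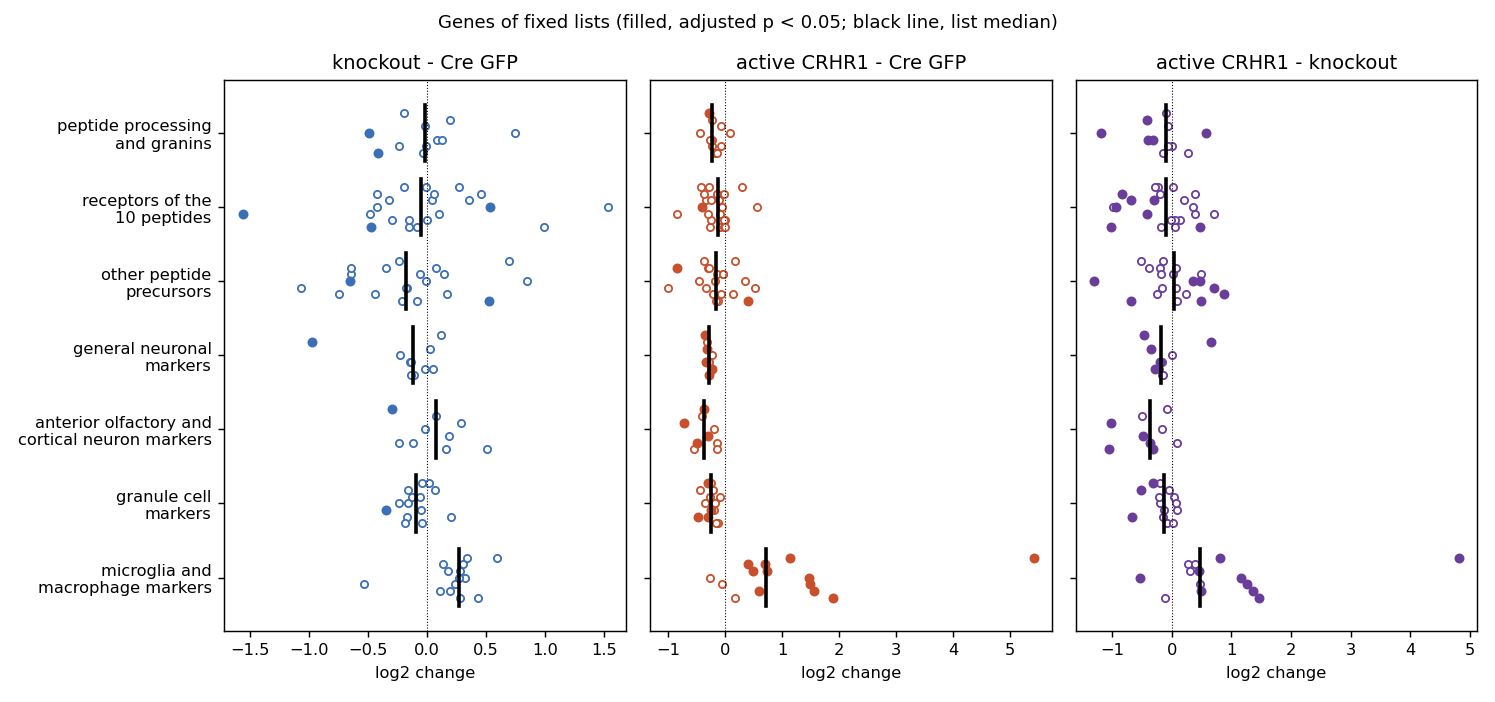
Log2 change of each tested gene of the peptide-related lists and of 4 lists of cell type markers in the 3 comparisons, filled for an adjusted p under 0.05, with a black line at the list's median. With active CRHR1 against Cre GFP the medians of the general neuronal, anterior olfactory and cortical, and granule cell lists lie between -0.38 and -0.25 and that of the microglia and macrophage list at 0.71.

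Markers of whole cell classes moved in the same comparison as the precursors, and their part in these results was not tested. With active CRHR1 against Cre GFP, 4 of 14 granule cell markers, 2 of 8 periglomerular, 0 of 9 mitral and tufted, 4 of 9 anterior olfactory and cortical, 1 of 8 olfactory sensory and 5 of 10 general neuronal markers fell, and none of these rose, also at an unadjusted p under 0.05 in limma (2 of the 9 mitral and tufted markers were lower at that level). Over all genes 4.67% fell and 3.90% rose in this comparison. Under the slide block the counts that fell were 2 for granule cells, 1 for periglomerular cells, 0 for mitral and tufted cells, 2 for anterior olfactory and cortical neurons, 0 for olfactory sensory neurons and 0 for neurons in general, while the median change of the general neuronal list was -0.30. Their summed linear levels (as multiples of the 75th percentile) were 304 to 361 with active CRHR1 against 382 to 438 in Cre GFP for the general neuronal list, 415 to 492 against 506 to 588 for granule cells, and 15.5 to 18.3 against 18.4 to 21.8 for anterior olfactory and cortical neurons. In the knockout the same sums were 354 to 388, 487 to 614 and 18.2 to 19.0, with 1 called gene in each list, all lower, where 1.43% of all genes were called lower. For the anterior olfactory and cortical list the genes that fell with active CRHR1 were Neurod2, Tbr1, Nrn1 and Emx1. Whether the genes of these lists are confined to the named cells was not tested, so a list's count is not a count for that cell type.

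The sums of the remaining neuronal lists overlapped between the groups. Periglomerular markers summed to 97.4 to 124 with active CRHR1, 115 to 151 in Cre GFP and 98.4 to 142 in the knockout, and mitral and tufted cell markers to 52.5 to 63.4, 58.3 to 69.9 and 60.3 to 67.5. Olfactory sensory markers summed to 126 to 185, 163 to 192 and 140 to 231, and whether this RNA came from sensory axons or from cells of the bulb was not tested. Immune markers mostly went the other way: 11 of 14 microglia and macrophage markers rose with active CRHR1 (sums of 147 to 215 against 94.3 to 125 in Cre GFP and 109 to 138 in the knockout). Of these 14, 1 was lower against Cre GFP at an unadjusted p under 0.05 in limma. Of the T cell markers 5 of 7 rose with active CRHR1 (2.89 to 7.76 against 2.86 to 3.43 and 3.03 to 4.10). Of these 5, Gzmb and Cd3g passed the filter on dim probes only through the active CRHR1 group, where they are high. Under the slide block 8 microglia and macrophage markers and 3 T cell markers rose, and without that block 3.90% of all genes rose with active CRHR1. In the knockout against Cre GFP limma called none of these immune markers, and 2 microglia and macrophage markers and 0 T cell markers were higher at an unadjusted p under 0.05. With active CRHR1 against Cre GFP, the median change over all 10 members was -0.35. It was -0.29 over the general neuronal markers, -0.25 over those of granule cells and -0.38 over those of anterior olfactory and cortical neurons. Grp, Sst, Adcyap1 and Pomc, at -1.41, -0.71, -0.68 and -0.39, are the members that passed the threshold, so their changes do not stand for the set.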

How the data were processed

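Total bulb RNA (100 ng per mouse, labelled with Cy3, per the labels' protocols) was measured on 15 1-colour arrays, and the labels give 5 separate mice per group. Spot intensity was background-subtracted by Agilent Feature Extraction 10.7.3.1 and not scaled between arrays, and the other columns are that program's flags, both per the file headers. The authors' deposited series values are each spot's ratio to the median of the array's 59305 non-control spots (established by comparison with the scanner files), and they were used as an alternative only, for the 8 members other than Grp and Nts.

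From the 62976 spots of each array, controls and outlier spots were left out, log2 of the processed signal minus the 75th percentile was taken, and replicate spots were averaged. Probes had to be well above background on 4 or more of a group's 5 arrays (33968 of 55681 were), 0 spots were saturated, and a gene was its brightest kept probe. Symbols came from the array design, with 2017 updated through RefSeq. Probe coordinates are mm9, per the file headers. The groups were compared with limma 3.58.1 in R 4.3.3, tested on simulated data.

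The members and lists were chosen with earlier results of these data known. Text names all 10 members, up to 3 called genes of smallest p per list and comparison, the 3 genes most like each called member, and Crhr1. Genes named as marker or filter results, and Sst, Pomc and Adcyap1 as promoters to show, were named after their values were seen. Alternatives covered scaling, background, filters, probe choice, slide, replicate number, variance models and each array left out. With slide as a fixed block, changes against Cre GFP equal those within a slide.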

Additional observations from a re-analysis of the deposited data

Results flagged for a closer look

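Of 30 groups of 5 arrays, 10 members in 3 groups, 2 held an array far from the others by Dixon's criterion at the 95% level, which chance gives in about 1 of 20 groups. Penk on Cre GFP array 2 had a level of 6.24, where the next highest Cre GFP array was at 5.95, and the gap took 0.840 of the group's range. Pomc on active CRHR1 array 4 had a level of 0.70, where the next highest was at 0.57, and the gap took 0.749 of the range. That Pomc array was still below all Cre GFP and knockout arrays.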

How the results depend on the processing

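Active CRHR1 against Cre GFP had 4 called members, and 1 with slide as a fixed block or within slide 2, Adcyap1, while 7 and 8 members were lower at an unadjusted p under 0.05 there. Active CRHR1 against knockout had 4, and 0 with slide as a fixed block in limma (6 at an unadjusted p under 0.05), but 6 with slide as a random block and 5 with normexp, an intensity trend or the filter on all 15 arrays. It was 2 with the authors' scaled values, which gave only 8 members, without Grp and Nts, and Sst and Pomc stayed called there. Knockout against Cre GFP had 1, and 0 with slide as a fixed block, within slide 1, with median centring, the authors' scaled values, no filter on dim probes or only the 2 groups compared (2 to 4 members at an unadjusted p under 0.05). Array weights gave 2 in the knockout comparison and 7 in active CRHR1 against Cre GFP. Leaving out 1 array at a time gave 0 to 1, 4 to 6 and 3 to 5 members for knockout and active CRHR1 against Cre GFP and active CRHR1 against knockout.

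Over all genes the counts of 927, 2343 and 7023 became 383, 1015 and 679 with slide as a fixed block, 404, 1273 and 4253 with median centring, 458, 1306 and 4396 with the authors' scaled values, and 389, 1240 and 6097 without the filter. Other counts over 1.5 times away were 1705 and 5862 with array weights, 493 with only the 2 groups in the knockout comparison, 1400 there with quantile normalization, 114 within slide 1 and 327 within slide 2, 561 and 1558 against Cre GFP with the replicate block, and 10623 with slide as a random block for active CRHR1 against knockout.

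Of 854 alternative values of single members, 790 kept direction and side of the threshold, 35 lost the call, 15 gained one and 14 changed sign, and none of these last was called. They were Penk between active CRHR1 and knockout with quantile normalization (0.012), Cartpt with active CRHR1 against Cre GFP with the slide block and within slide 2 (-0.011), Vip between active CRHR1 and knockout with the slide block (-0.039), and knockout differences from Cre GFP: Nts with median centring (-0.0036), array weights (-0.055) and without Cre GFP 1 (-0.054), Grp with the slide block, within slide 1 (-0.091 each), with array weights (-0.093) and without Cre GFP 1 (-0.089), and Tac1 with array weights (-0.073) and without knockout 5 (-0.019) or Cre GFP 1 (-0.024). Over all omissions of an array those knockout differences ran from -0.054 to 0.13 for Nts, -0.089 to 0.29 for Grp and -0.024 to 0.16 for Tac1. The cause was not tested.

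The labels' replicate numbers did not pair the mice: correlations of deviations of same-numbered arrays ran from -0.15 to 0.40, -0.22 to 0.09 and -0.08 to 0.18 in the 3 comparisons, and 1, 0 and 1 of 5 arrays correlated best with their own number. With the replicate block 1, 4 and 3 members were called, Nts losing its call between active CRHR1 and knockout (adjusted p = 0.0516). The number of arrays limits the precision, and Grp was measured close to the background limit.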
